A study of Homo sapiens with 8 samples.

Results

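Chemokines are small secreted proteins that direct the migration of cells along their concentration gradients. The data described here are those of 8 chemokine genes (CXCL1, CXCL2, CXCL3, CXCL5, CXCL8, CXCL14, CCL2, and CCL20) and of 2 genes for receptors of the chemokine CXCL12 (CXCR4 and ACKR3). They were measured in cancer stem cells and in cisplatin-resistant cells derived from H460, an established human non-small-cell lung cancer line. A probe was taken when it was not a control and the transcript accession of the array design belonged to one of the 10 genes. This gave 13 probes, printed as 31 spots on each array, among 41000 probes and 32642 gene names. CXCL2, CXCL3, and CXCL5 had 2 probes each, and CXCR4 and CCL2 had 1 probe printed in 10 spots.

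The arrays were 8 dual-color whole human genome arrays. The cancer stem cells (H460C) were H460 cells kept without adhesion in a serum-free DMEM/F12 medium with 0.4% BSA, N2 supplement, and 20 ng/mL of the growth factors EGF and FGF-b. The resistant cells (H460R) were H460 cells left alive by a 72 h exposure to cisplatin at 0.5 µg/mL, which then grew drug-free in RPMI with 10% FBS. The H460 cells themselves grew in RPMI with 10% FBS and received no drug, and the labels name a single H460 RNA. For each population the arrays carried RNA from 2 samples, each set against H460 on a pair of arrays with exchanged dyes. H460C and H460 differed in medium, serum, growth factors, and adhesion at the same time, and these cannot be told apart. The arrays of each population were on their own slide, and an effect of the slide cannot be told apart from one of the population either.

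The studied cells gave 25868 to 28499 probes well above background per array, and H460 gave 22834 to 26966. The difference between the replicates was measured once per dye orientation, and these measures correlated with r = 0.27 for H460R (25713 probes) and with r = -0.01 for H460C (24642 probes). No difference between the H460C replicates was therefore seen beyond hybridization noise, and H460C is given without SD, as 1 sample. H460R is given with its SD (n = 2). The tests took the H460C ratios as 2 replicates all the same. Nothing in the labels says that RNA samples of one population came from separate cultures. The limma p-values thus measure only the spread between these samples, which may be technical. The Rank Products p-values measure how high or low a probe ranked among all tested probes in both samples, and no spread. Spots whose local background was more than 2 times the array's median were seen on 6 arrays, 2 to 17 on each. On the array of H460C replicate 1 labeled with Cy5 this background reached 17183 intensity units, and on the others at most 607.

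CXCL1, CXCL2, CXCL3, CXCL5, and CXCL8 are chemokines of the ELR type, which attract neutrophils and promote vessel growth through the receptor CXCR2. Their genes lie in a cluster on chromosome 4, and factors of the NF-kB family are well-known activators of them. CCL20 attracts cells that carry CCR6, and CCL2 attracts monocytes through CCR2. CXCL14 is a chemokine made by many normal epithelia. CXCR4 signals through G proteins when it binds CXCL12 and is widely studied in metastasis. ACKR3 (formerly CXCR7) binds CXCL12 and CXCL11, does not couple to G proteins in the usual way, and removes its ligands from the medium.

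The promoters of the ligand genes are shown because most of these genes had higher values than H460 in both populations. The sequences are the reference of RefSeq (GRCh38.p14), at positions -150 to -41 from the start of the gene, 5′ to 3′ on the strand of the gene. A promoter entry was found for 8 of the 10 genes and not for CCL2 and ACKR3. Capitals mark matches on either strand to GGNNTTTCC, a motif of the NF-kB type, or to the AP-1 type motif, which is TGA, any base, and TCA. The regions are chr4:73869243-73869352 (plus strand) for CXCL1, chr4:74099236-74099345 (minus) for CXCL2, chr4:74038730-74038839 (minus) for CXCL3, chr4:73998718-73998827 (minus) for CXCL5, chr4:73740419-73740528 (plus) for CXCL8, chr2:227813692-227813801 (plus) for CCL20, and chr5:135579032-135579141 (minus) for CXCL14.
CXCL1: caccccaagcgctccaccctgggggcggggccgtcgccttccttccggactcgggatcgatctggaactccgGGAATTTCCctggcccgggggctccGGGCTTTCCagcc
CXCL2: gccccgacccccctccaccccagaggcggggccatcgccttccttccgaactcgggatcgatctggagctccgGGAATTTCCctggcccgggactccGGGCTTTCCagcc
CXCL3: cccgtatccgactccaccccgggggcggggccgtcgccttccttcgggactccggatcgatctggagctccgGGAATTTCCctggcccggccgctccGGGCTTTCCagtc
CXCL5: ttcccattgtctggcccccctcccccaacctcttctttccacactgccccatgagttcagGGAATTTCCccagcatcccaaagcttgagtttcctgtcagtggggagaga
CXCL8: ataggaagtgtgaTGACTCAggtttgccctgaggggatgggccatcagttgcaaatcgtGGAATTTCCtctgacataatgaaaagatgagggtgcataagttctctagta
CCL20: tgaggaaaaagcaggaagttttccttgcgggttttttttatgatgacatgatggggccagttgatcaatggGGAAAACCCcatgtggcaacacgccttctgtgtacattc
CXCL14: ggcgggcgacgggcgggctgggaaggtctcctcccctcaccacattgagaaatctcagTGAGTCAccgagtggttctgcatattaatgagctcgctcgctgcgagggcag

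The 5 ELR genes all held the letters GGAATTTCC, which began at -91 in CXCL8, -90 in CXCL5, -78 in CXCL1 and CXCL3, and -77 in CXCL2. CXCL1, CXCL2, and CXCL3 held a second match of the same motif, GGGCTTTCC, which began at -53. In CCL20 the match lay on the opposite strand. Of the 35116 reference promoters, each with 250 bases before the start and 50 after it, 6.26% held GGNNTTTCC and 7.71% held the AP-1 type motif. The latter was found in CXCL8 from -137 and in CXCL14 from -92. The CXCR4 gene has 3 entries, 1 of which held GGNNTTTCC on the opposite strand, from -230. The printed stretches of CXCL1 and CXCL3 were identical at 94 of 110 positions (85.5%), and CXCL1 and CXCL2 at 85 of 109 (78%) with a shift of 1 base. CXCL5 and CXCL8 shared at most 35.5% of positions with any other gene of the group. A match is a description of the letters and no evidence that a factor binds there.

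The log2 ratios over H460 were above 0 on every array for CXCL2, CXCL3, CXCL5, CXCL8, CXCL14, CCL20, CXCR4, and ACKR3. The share of all gene names above 0 on every array was not counted, so this is a description. Both receptors had much larger ratios in H460C than in H460R. By the exact Rank Products test at a false discovery rate (FDR) of 0.05, which ranks each probe within each replicate, 2 of the 10 genes were called higher in H460C (CXCR4 and ACKR3) and 2 were called higher in H460R (CXCL2 and CXCL5). No member was called lower in either. Of all 20317 gene names tested, 0.556% were called higher in H460C and 0.492% were called higher in H460R. With limma in place of Rank Products, 8 genes were called higher in H460C and 10 in H460R, and none was called lower. By limma 36.5% of all gene names were called higher and 34.5% lower in H460C, and 36.5% higher and 32.5% lower in H460R. The median log2 ratio of the 10 genes was 1.49 in H460C and 1.08 in H460R, and that of all gene names was -0.00 and 0.01. All 10 genes passed the filter on dim probes, CCL2 through H460R alone. Both comparisons use the same H460 RNA. In these bulk RNA samples, a higher level per cell and a larger share of cells with the transcript cannot be told apart.

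**Figure D1:**
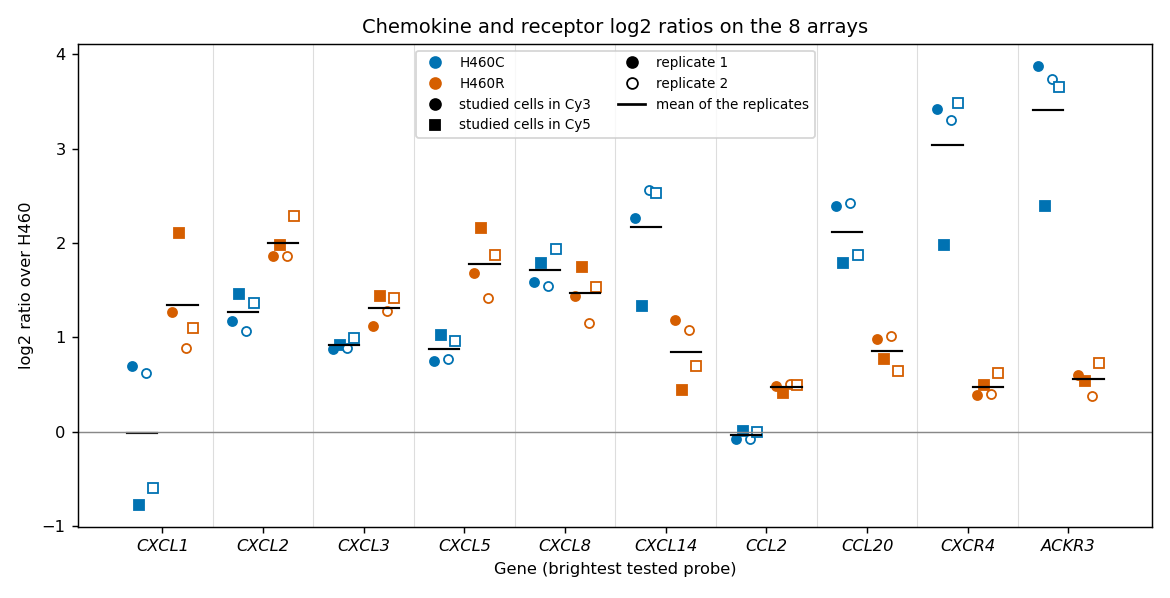
Log2 ratio over H460 (y axis) of the 10 genes (x axis) on each of the 8 arrays, at the probe read for each gene, with H460C in blue and H460R in orange. Symbols give the dye of the studied cells (circle Cy3, square Cy5), filling the replicate (filled 1, open 2), and black bars the mean of the replicates. CXCR4 and ACKR3 have the highest H460C means (3.04 and 3.42), and CXCL1 in H460C changes sign with the dye.

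CXCL2 (NM_002089) had the largest H460R ratio among the probes read for the genes. At the probe read for the gene, its log2 ratio was 1.86 and 1.98 on the arrays of H460R replicate 1 (Cy3 and then Cy5 for the studied cells, as in all the following pairs) and 1.86 and 2.28 on those of replicate 2. In H460C it was 1.17 and 1.46 for replicate 1 and 1.07 and 1.36 for replicate 2. All H460R arrays lay above all H460C arrays. The mean was 1.99 ± 0.11 in H460R (SD, n = 2, 3.99-fold, exact Rank Products FDR = 0.0202) and 1.26 in H460C (2.40-fold, FDR = 0.232, not called). The second probe had lower values in the same order, 1.55 ± 0.02 (SD, n = 2) in H460R and 0.50 in H460C, and neither was called by Rank Products. With the log ratio of the scanner software in place of the correction used here, the H460R value of CXCL2 was 1.96 and its FDR 0.147, and on the Cy3 arrays alone it was 1.86 with an FDR of 0.0712, so the call was lost in both. Over all alternatives the p or FDR ran from 4.19e-05 to 0.147.

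CXCL5 (NM_002994) was also higher in H460R. The log2 ratio at its brightest probe was 1.68 and 2.15 in H460R replicate 1 and 1.41 and 1.87 in replicate 2, with a mean of 1.78 ± 0.20 (SD, n = 2, 3.43-fold, exact Rank Products FDR = 0.0379). In H460C the values were 0.75 and 1.02 in replicate 1 and 0.77 and 0.96 in replicate 2, with a mean of 0.87 (FDR = 0.413). The groups did not overlap. This probe was close to the upper limit of the scanner, and the channel of the studied cells was saturated on 2 of 4 H460C arrays and on 1 of 4 H460R arrays. The second probe of CXCL5 was not saturated on any array and gave larger ratios, with 2.46 and 2.28 in H460R replicate 1, 2.45 and 2.41 in replicate 2, and a mean of 2.40 ± 0.04 (SD, n = 2, 5.29-fold, exact Rank Products FDR = 0.00529). In H460C the second probe gave 1.87 in replicate 1, from a single array because the spot of the other was marked as an outlier, and 1.82 and 1.89 in replicate 2, with a mean of 1.86 (FDR = 0.091). At the brightest probe the H460R call was lost with the authors' processed table (1.55 on the log2 scale, FDR = 0.0629), with a normexp offset of 0, with median centring, with the software's log ratio, and on the Cy3 arrays alone, and the p or FDR over all alternatives ran from 5.61e-05 to 0.206. The second probe kept its call with the authors' table (2.34, FDR = 0.00496) and lost it with the software's log ratio (2.47, FDR = 0.0619).

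CXCL3 (NM_002090) had ratios of 1.12 and 1.44 in H460R replicate 1 and of 1.28 and 1.41 in replicate 2. In H460C its ratios were 0.88 and 0.91 in replicate 1 and 0.88 and 0.99 in replicate 2, all below the lowest H460R value. Neither mean was called (1.31 ± 0.05, SD, n = 2, exact Rank Products FDR = 0.134 in H460R; 0.91, FDR = 0.386 in H460C). The second probe of CXCL3 turned the order around, with a mean of 1.54 in H460C and of 1.25 ± 0.14 (SD, n = 2) in H460R. CXCL2 and CXCL3 are close relatives of CXCL1 in sequence, and how far their probes capture each other's transcripts was not tested.

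CXCL8 (NM_000584), which encodes interleukin 8, had similar ratios in both populations. They were 1.59 and 1.79 in H460C replicate 1, 1.55 and 1.94 in replicate 2, 1.43 and 1.74 in H460R replicate 1, and 1.15 and 1.53 in replicate 2. The groups overlapped. The means were 1.71 in H460C (3.28-fold, FDR = 0.116) and 1.47 ± 0.17 in H460R (SD, n = 2, 2.76-fold, exact Rank Products FDR = 0.0921), and neither was called. Every array of both populations gave a ratio above 1. On the arrays of H460R replicate 2 the spot was dimmer in both channels. H460 read 331 and 160 there, against 737 to 1635 on the other arrays. H460R read 570 and 1112, against 1582.5 and 5997 in replicate 1. The reason was not tested.

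CXCL1 (NM_001511) was the brightest member, and its spot exceeded the range of the scanner. The studied channel was saturated on 4 of 4 H460C arrays and on 3 of 4 H460R arrays, and the H460 channel on 2 of 4 arrays of each population. The H460C ratios were 0.69 and -0.78 in replicate 1 and 0.62 and -0.60 in replicate 2, so their sign followed the dye. The H460R ratios were 1.27 and 2.10 in replicate 1 and 0.88 and 1.09 in replicate 2, all above 0, with a mean of 1.34 ± 0.49 (SD, n = 2, exact Rank Products FDR = 0.137). The ratio of 2.10 came from the array on which neither channel was saturated, with intensities of 58989 in H460R and 5457 in H460. No fold change is given for H460C.

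CCL20 (NM_004591) had ratios of 2.39 and 1.78 in H460C replicate 1 and of 2.43 and 1.88 in replicate 2. In H460R it had 0.98 and 0.77 in replicate 1 and 1.02 and 0.64 in replicate 2. The H460C values lay above the H460R values on every array, and in both populations the Cy3 arrays gave the higher value. The means were 2.12 in H460C (4.35-fold, FDR = 0.060, not called) and 0.85 ± 0.03 in H460R (SD, n = 2, 1.81-fold, exact Rank Products FDR = 0.371). Without the filter on dim probes, which changes only the number of probes tested, the FDR in H460C was 0.0381. Over all alternatives the p or FDR ran from 3.05e-06 to 0.180.

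CCL2 (NM_002982) stayed near the detection limit. Its ratios were -0.08 and 0.00 in H460C replicate 1 and -0.07 and -0.00 in replicate 2. They were 0.48 and 0.40 in H460R replicate 1 and 0.50 and 0.49 in replicate 2, above every H460C array. The transcript was well above background in H460R on 4 of 4 arrays, in H460C on 0 of 4, and in H460 on 0 of 8. Its level in H460R was at least 1.38-fold that of H460 (0.47 ± 0.04 on the log2 scale, SD, n = 2, exact Rank Products FDR = 0.741, not called). This fold and those given below as "at least" set the mean normalized intensity of the brighter population against the dim channel, taken on each array as the higher of its own signal and the lowest signal well above background. They are open to dye bias within an array, which the exchange of dyes balances. They hold under this processing and are no lower bound across the alternatives. Those between H460C and H460R compare intensities on separate slides and do not use the H460 channel. On the H460R arrays the H460 signals of CCL2, CXCL14, CXCR4, and ACKR3 lay above that lowest signal. Their H460R folds are therefore those of the log2 ratios themselves. Among the alternatives, the lowest H460R log2 ratios of these genes were 0.43, 0.57, 0.40, and 0.49.

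CXCL14 (NM_004887) had ratios of 2.27 and 1.33 in H460C replicate 1, 2.56 and 2.53 in replicate 2, 1.18 and 0.44 in H460R replicate 1, and 1.07 and 0.69 in replicate 2. Every H460C array lay above every H460R array. The gene was well above background on all arrays of both populations and on 0 of 8 arrays in the H460 channel. Its level was at least 4.43-fold that of H460 in H460C (2.17 on the log2 scale, FDR = 0.0606, not called) and at least 1.80-fold in H460R (0.85 ± 0.05, SD, n = 2, exact Rank Products FDR = 0.377, not called). The value of 1.33 came from the array with the high local background. When such spots were left out of the background model, an alternative chosen after the data had been seen, that ratio was 2.46, the H460C mean 2.45, and its FDR 0.0432. CXCL14 was called in H460C in 10 of 14 alternatives, among them no background subtraction (2.63, FDR = 0.0344), a normexp offset of 0 (3.15, FDR = 0.0227), the software's log ratio (5.18, FDR = 0.00385), no filter on dim probes (FDR = 0.0385), and the Cy3 arrays alone (2.41, FDR = 0.0498). The remaining calls came from the model without high-background spots and from the fits in which limma replaced Rank Products. By limma 36.5% of all gene names were called higher in H460C. Over all alternatives the p or FDR in H460C ran from 1.71e-06 to 0.0917.

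CXCR4 (NM_001008540) was higher in H460C than in H460. The log2 ratios, each the mean over the spots of an array, were 3.42 and 1.97 in H460C replicate 1 and 3.30 and 3.49 in replicate 2, with a mean of 3.04 (exact Rank Products FDR = 0.0132). In H460R they were 0.39 and 0.49 in replicate 1 and 0.40 and 0.62 in replicate 2, with a mean of 0.48 ± 0.05 (SD, n = 2, exact Rank Products FDR = 0.732, not called). H460C and H460R were far apart on every array. The H460 channel was not well above background on any of the 8 arrays, so the level in H460C was at least 7.73-fold, and that in H460R at least 1.39-fold, that of H460. In the raw intensities, the H460C channel read 749 and 729 on the Cy3 arrays and 1665 and 1814 on the Cy5 arrays, against 57.2 to 90.3 in H460. The H460R channel read 74.6 and 78.3 in Cy3 and 135.9 and 147.3 in Cy5, against 53.2 to 81.1 in H460.

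The 10 spots of the CXCR4 probe, read in the authors' processed table, gave log2 ratios from 2.46 to 3.17 in H460C and from 0.05 to 0.94 in H460R. No spot of one population reached those of the other. In H460C all 10 spots were well above background on every array, in H460R between 7 and 10 were, and in H460 0 of 10 were on any array. The median of the 10 spots was 2.96 on the array that gave 1.97 above, and 2.99, 2.90, and 3.06 on the other H460C arrays. The lowest spot, 2.46, was also on that array, which has the high local background. With the high-background spots left out of the background model, the ratio on that array was 3.33 and the H460C mean 3.38 (FDR = 0.00838). The size depends on how the dim H460 channel is treated. With the log ratio of the scanner software, which subtracts background without an offset, the mean was 6.45 in H460C and 2.59 in H460R, and H460R was then called (FDR = 0.0485). The H460C call held in all 14 alternatives that measured CXCR4, which the stricter filter removes.

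ACKR3 (NM_020311) was higher in H460C than in H460. Its values were 3.88 and 2.40 in H460C replicate 1 and 3.74 and 3.65 in replicate 2, and 0.60 and 0.54 in H460R replicate 1 and 0.38 and 0.73 in replicate 2. The lowest H460C value exceeded the highest H460R value by more than the range of the H460R values. The means were 3.42 in H460C (exact Rank Products FDR = 0.00569) and 0.56 ± 0.01 in H460R (SD, n = 2, FDR = 0.638, not called). The H460 channel was well above background on 1 of 4 H460C arrays and on 0 of 4 H460R arrays, and the H460R level was at least 1.47-fold that of H460. No fold is given for H460C, since H460 was measured on a single array of the 4, at the lowest level well above background. For the same reason CXCR4 and ACKR3 are not ranked against each other, and with the software's log ratio CXCR4 had the larger value. Again the low value came from the array with the high local background. It was 3.68 there with the high-background spots left out of the background model. In the authors' table, ACKR3 ranged from 3.31 to 3.44 over the H460C arrays and from 0.34 to 0.66 over those of H460R. The software's log ratio gave 6.16 in H460C and 2.62 in H460R, the latter called (FDR = 0.0423), and the H460C call held in all 14 alternatives.

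**Figure D2:**
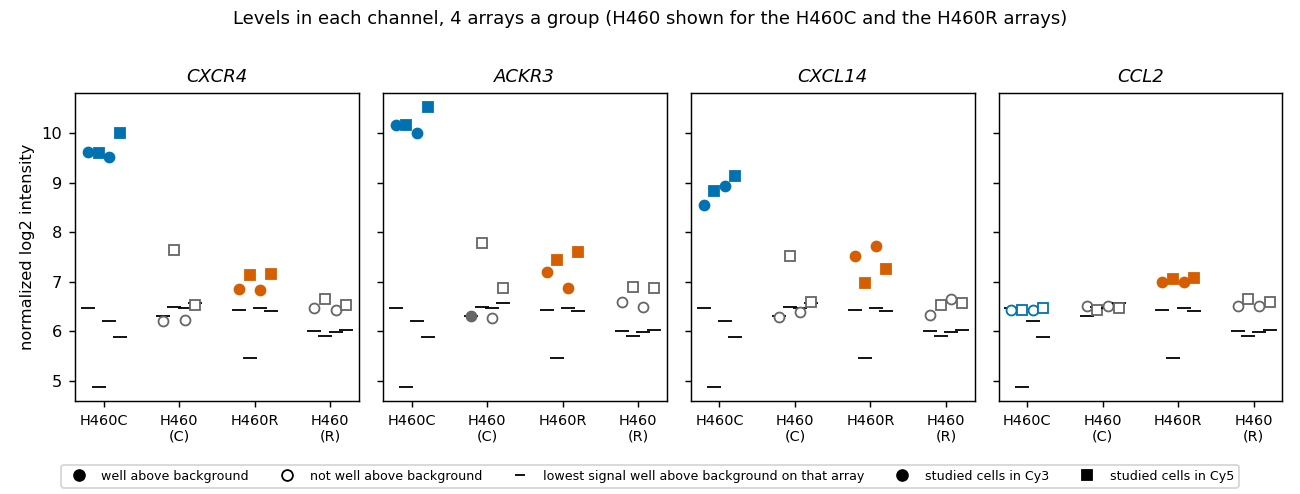
Normalized log2 intensity (y axis) of CXCR4, ACKR3, CXCL14, and CCL2 in the channel of the studied cells and in the H460 channel of the same arrays, 4 arrays a group. Filled symbols are well above background, open ones are not, circles are arrays with the studied cells in Cy3 and squares those with them in Cy5, and dashes mark the lowest signal well above background on that array and channel. CXCR4 and ACKR3 stand between 9.53 and 10.5 in H460C and between 6.84 and 7.60 in H460R.

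H460C and H460R were then compared directly with limma on the 4 ratios, in which the H460 RNA cancels. The populations also differed in medium, serum, growth factors, adhesion, and cisplatin exposure, and these cannot be told apart. Of the 10 genes, 9 differed at an adjusted p of 0.05, 4 of them higher in H460C and 5 higher in H460R. Of all gene names, 55.9% differed, 28.0% higher in H460C and 27.9% higher in H460R, so a call in this comparison is common. The 4 genes higher in H460C were both receptors, CCL20, and CXCL14. The 5 genes called higher in H460R were CXCL1, CXCL2, CXCL3, CXCL5, and CCL2. These counts include CXCL1, whose saturated spot measured neither size nor direction, and CCL2, which passed the filter on dim probes through H460R alone.

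The receptors differed most. ACKR3 was higher in H460C by 2.86 (SE 0.18, limma adjusted p = 0.00027) and CXCR4 by 2.57 (SE 0.22, limma adjusted p = 0.000645) on the log2 scale. CCL20 was higher by 1.27 (SE 0.06, limma adjusted p = 0.000124). CXCL14 was higher by 1.32 (SE 0.24, limma adjusted p = 0.0067), and this call was lost in 4 of 16 alternatives. These were the fits without H460R replicate 1 (1.29, limma adjusted p = 0.0679) and without H460R replicate 2 (1.36, limma adjusted p = 0.0608), a normexp offset of 0 (1.38, limma adjusted p = 0.0552), and the Cy5 arrays alone (1.36, limma adjusted p = 0.0576).

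Of the genes higher in H460R, CXCL5 differed by -0.90 (SE 0.10, limma adjusted p = 0.00138) at the probe read and by -0.54 (SE 0.06, limma adjusted p = 0.00114) at the second probe, which was not saturated on any array. CXCL2 differed by -0.73 (SE 0.08, limma adjusted p = 0.00116) and by -1.05 (SE 0.05, limma adjusted p = 0.000166) at its second probe. CCL2 differed by -0.51 (SE 0.06, limma adjusted p = 0.00132). It was not well above background in H460C, so this is no measured size. Since CCL2 was tested only because H460R passed the filter, the call is a description. CXCL3 differed by -0.40 (SE 0.06, limma adjusted p = 0.00345) at the probe read and by 0.29 (SE 0.09, limma adjusted p = 0.0387) at the second probe, so its direction depended on the probe. The mean over both probes was -0.05 (limma adjusted p = 0.513). CXCL1 was also called (limma adjusted p = 0.00497), but neither its size nor its direction was measured, because the spot was saturated on every H460C array and its H460C ratios changed sign with the dye.

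CXCL8 was the member that was not called. Its difference was 0.25, with a 95% interval from 0.01 to 0.49 (limma adjusted p = 0.0743). It passed the threshold in 4 of 17 alternatives, with differences from 0.13 to 0.37 and adjusted p from 0.0226 to 0.260 over all of them. A difference of up to 0.49 is therefore not excluded by these arrays.

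**Figure D3:**
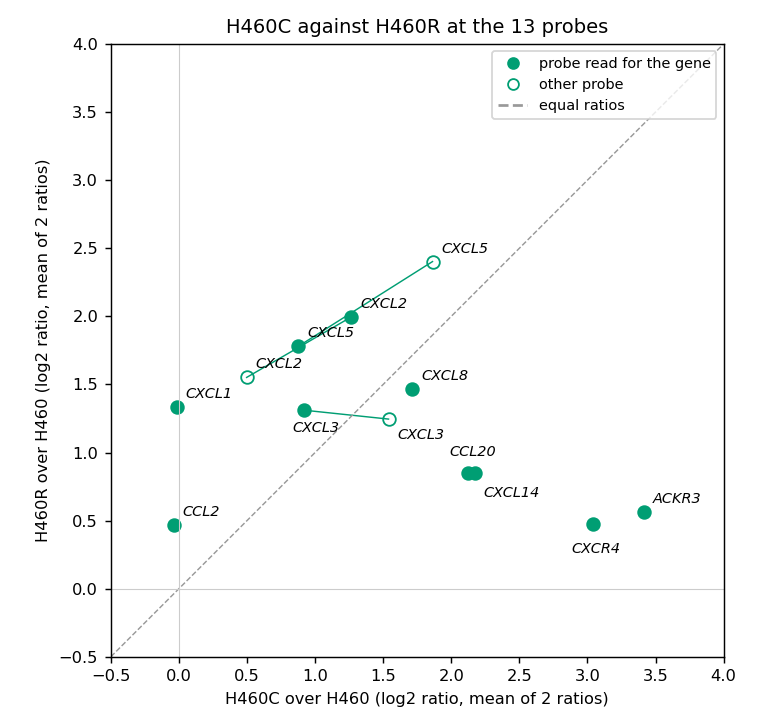
Mean log2 ratio of H460C over H460 (x axis) against that of H460R over H460 (y axis) at the 13 probes. Filled points are the probes read for the genes, open points the second probes of CXCL2, CXCL3, and CXCL5, joined by a line, and the dashed line marks equal ratios. CXCR4, ACKR3, CCL20, and CXCL14 lie below the line, CXCL1, CXCL2, CXCL5, and CCL2 above it, and the probes of CXCL3 on either side.

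**Figure D4:**
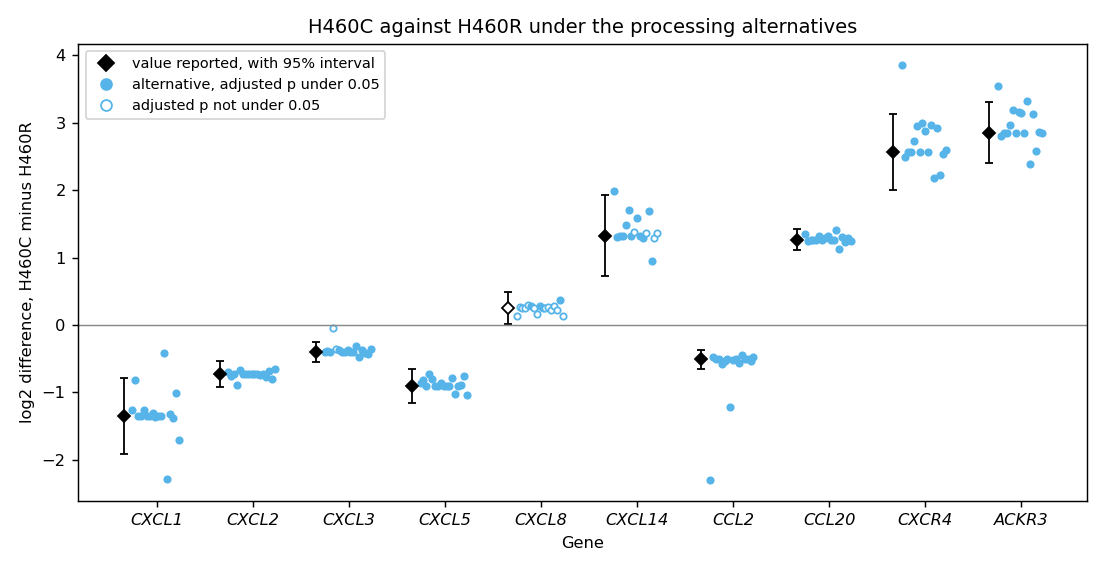
Log2 difference H460C minus H460R (y axis) for each of the 10 genes (x axis). Black diamonds are the values reported with their 95% intervals, and blue points are the processing alternatives, both filled where the adjusted p was under 0.05. No gene changed direction, and CXCL8, CXCL14, and CXCL3 have both filled and open points.

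The arrays hold other genes of the chemokine system. Of 30 other ligands, 28 were on the array and 8 were tested. None was called against H460 by Rank Products in either population, while limma called 1 higher and 1 lower in H460C, and 2 higher and 4 lower in H460R. The median of the tested ligands was 0.03 in H460C and -0.12 in H460R. CCL5, a T cell and monocyte attractant, was the one called between the populations (limma adjusted p = 0.012). It was well above background in H460R only, through which it passed the filter, so this call is a description. Its difference was -0.32 (SE 0.07), which is no measured size, because CCL5 was not well above background in H460C. CXCL12, the ligand of CXCR4 and ACKR3, was not tested, because it was well above background on 2 of 4 H460C, 3 of 4 H460R, and 4 of 8 H460 arrays. MIF, another ligand of CXCR4, was well above background on all arrays, at 0.41 in H460C and 0.53 ± 0.22 (SD, n = 2) in H460R.

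Of 21 other receptors, 20 were on the array and 6 were tested, with medians of -0.03 in H460C and -0.00 in H460R. None was called against H460 by Rank Products, while limma called 2 higher in H460C, and 1 higher and 1 lower in H460R. CCR1, a receptor of CCL5, differed between the populations by 0.54 (SE 0.08, limma adjusted p = 0.00339), with ratios of 0.55 in H460C and 0.00 ± 0.06 (SD, n = 2) in H460R. It passed the filter through H460C alone, so this call is a description, and was well above background on 2 of 4 H460R and 0 of 8 H460 arrays. CXCR2, the main receptor of the ELR chemokines, and CCR6, the receptor of CCL20, were not well above background on any array. CXCR1, which also binds CXCL8, was well above background on 0 of 4 H460C, 3 of 4 H460R, and 4 of 8 H460 arrays and was not tested.

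Of 19 genes for signalling and turnover of chemokine receptors, 15 were tested. Between the populations limma called 5 higher in H460C and 5 higher in H460R. Against H460 none was called by Rank Products, while limma called 4 higher and 5 lower in H460C, and 6 higher and 6 lower in H460R. Among the genes higher in H460R were ARRB2, an arrestin that binds activated receptors (difference -1.64, SE 0.10, limma adjusted p = 0.000239), and GRK3, a kinase that marks receptors for arrestins (-0.83, SE 0.09, limma adjusted p = 0.00123). The inhibitory G protein subunit GNAI1 differed by -1.24 (SE 0.06, limma adjusted p = 0.000119), with a ratio of 1.17 ± 0.03 in H460R (SD, n = 2, exact Rank Products FDR = 0.184, limma adjusted p = 4.31e-05). RGS2 and GRK5 were the others, at -1.13 and -0.50. GNAI3, RGS16, GRK2, and GRK6 were higher in H460C by 0.34 to 0.55. ARRB1 passed the filter through H460C alone, was not well above background in H460R, and was at least 1.13-fold higher in H460C. The share called, 10 of 15, stands beside 55.9% of all gene names.

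Markers of cell types were read on the same arrays. The 5 epithelial markers were all tested and well above background in H460C on every array. EPCAM and CDH1 passed the filter through H460C alone. EPCAM was at 1.36 in H460C and -0.09 ± 0.04 (SD, n = 2) in H460R. It was well above background on 3 of 4 H460R and 7 of 8 H460 arrays. The level of CDH1 in H460C was at least 1.72-fold that of H460R. KRT8 and KRT18 were also higher in H460C than in H460R, by 0.26 and 0.85. KRT19 was lower in H460C, by -0.86. Of 7 leukocyte markers, PTPRC, CD3D, and LST1 were not well above background on any array, and CD14 and TYROBP, the tested ones, did not pass the test between the populations. Of the endothelial markers, PECAM1 passed the filter through H460C alone, was not well above background in H460R, and was at least 1.36-fold higher in H460C. Among fibroblast markers, LUM was called lower in H460C (-3.23, exact Rank Products FDR = 0.00498). It was at -1.01 ± 0.15 (SD, n = 2) in H460R and was not called there by Rank Products. DCN was at -1.37 in H460C and -0.60 ± 0.16 (SD, n = 2) in H460R, neither called by Rank Products. It was well above background on 1 of 4 H460C arrays. PDGFRB was higher in H460C than in H460R by 0.65. The part of these markers in the chemokine ratios was not tested.

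The genes whose 4 ratios lay nearest to those of ACKR3, by Euclidean distance on the log2 scale among 12374 tested symbols, were IFI30 (distance 0.24), ACAT2 (0.39), and SEMA6A (0.53). IFI30 had 3.23 and 3.49 in the H460C replicates and 0.48 and 0.53 in the H460R replicates, against 3.14, 3.69, 0.57, and 0.55 for ACKR3. The genes nearest to CXCL2, with the largest H460R ratio at the probes read, were AGR2 (distance 0.27), CA12 (0.27), and MT1H (0.35). AGR2 had 1.46 and 1.44 in H460C and 1.89 and 2.05 in H460R, against 1.31, 1.22, 1.92, and 2.07 for CXCL2.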

How the data were processed

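RNA of H460C and H460R cells was compared with H460 RNA on 8 two-color Agilent arrays. The values analyzed were deposited median intensities (spot and local background, not normalized), which the authors had extracted with Feature Extraction 10.1.1.1. The log10 ratios (red over green) deposited with them served in an alternative. On 1 array it had lost its decimal points and was deposited as a score, restored here by dividing by 10 to the power of 9. The authors' table of log2 ratios over H460, with medians from -0.02 to 0.00 and dye-swapped arrays already turned, served in another, and its background correction and normalization are not given in the sources used here. It had 0 columns without a sample. The other deposited marks (saturation, outliers, background) were used as given.

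Background was corrected with normexp (offset 50, fitted on all spots) and ratios were normalized by loess within arrays (limma 3.58.1, R 4.3.3). Outlier spots were dropped, the spots of a probe were averaged, and so were the dye-swapped arrays of each sample. Testing required that a share of 0.5 or more of a probe's spots stood well above background on every array of H460C, H460R, or H460, and 26014 probes with complete ratios remained. Rank Products was run in each direction with exact p-values on 2 ratios per population, and limma was two-sided with 2 residual degrees of freedom. Both were adjusted by Benjamini-Hochberg over all tested probes at 0.05. Against H460, limma tested the ratio against 0, and Rank Products tested the ranks of a probe among all tested probes. Both leave out the spread of H460. A gene was read from its brightest tested probe, and names came from RefSeq (GRCh38.p14), which matched 23958 of 25868 probes with RefSeq accessions. Rank Products and limma were tested on simulated data with 67, 67, and 66 probes changed by 1, 2, and 3 on the log2 scale. This is a far smaller share than limma called in the real data, so the recovery there does not give the sensitivity here. The number of arrays limits the precision.

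The members, the lists of genes, and the naming rule (the 10 genes, list genes called in any comparison, and the 3 nearest symbols to the members with the largest ratios) were chosen with earlier results of these data known. Genes of the lists were counted, and list genes named beside those are named for their role. The alternatives were no background subtraction, an offset of 0, median centring, the software's log ratio, the authors' table, dropping or tightening the filter on dim probes, 1 dye orientation, the mean over probes, limma in place of Rank Products, a replicate block, averaged H460C replicates, and each replicate left out.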

Additional observations from a re-analysis of the deposited data

Results flagged for a closer look

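Between H460C and H460R, 9 of the 10 genes differed by the direct limma test of the difference, against 55.9% of all gene names. The log2 differences, H460C minus H460R, were 2.86 for ACKR3, 2.57 for CXCR4, 1.32 for CXCL14, and 1.27 for CCL20, which were higher in H460C. They were -1.35 for CXCL1, -0.90 for CXCL5, -0.73 for CXCL2, -0.51 for CCL2, and -0.40 for CXCL3, which were called higher in H460R. The CXCL1 spot was saturated, so neither its size nor its direction was measured. CCL2 was not well above background in H460C and was tested only because H460R passed the filter, so its value is no measured size. The CXCL5 probe was saturated on 2 of 4 H460C arrays and on 1 of 4 H460R arrays, and the unsaturated probe gave -0.54. The CXCL3 value turned to 0.29 at the second probe of the gene.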

How the results depend on the processing

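None of the differences or ratios of the 10 genes changed direction with a call under any alternative. The 2 genes called in H460C became 4 without a filter on dim probes (CXCL14 and CCL20 added) and 8 with limma in place of Rank Products, with averaged H460C replicates, and without either H460C replicate, where limma also replaced Rank Products. With the stricter filter 0 of 6 measured genes were called in H460C by Rank Products, since CXCL14, CCL2, CXCR4, and ACKR3 do not pass it, while 5 had an unadjusted p under 0.05 and 5 were called by limma. CXCL14 was the third gene in H460C with no background subtraction, with an offset of 0, with the software's log ratio, without high-background spots, and on the Cy3 arrays alone. The 2 genes called in H460R became 1 with a normexp offset of 0, with median centring, and with the authors' table, in each case without CXCL5, and 10 with limma. With the software's log ratio 3 were called in H460R, which were CXCL14, CXCR4, and ACKR3 and neither CXCL2 nor CXCL5. On the Cy3 arrays alone 0 were called in H460R by Rank Products, where 7 had an unadjusted p under 0.05 and limma called 10. Without either H460R replicate limma called 7, without CXCL14, CXCR4, and ACKR3. The 9 genes that differed between H460C and H460R became 5 of 6 measured genes with the stricter filter, and 8 to 9 when 1 replicate was left out. CXCL14 lost its call without either H460R replicate, with an offset of 0, and on the Cy5 arrays alone, and CXCL8 gained one without H460R replicate 1 (0.37). CXCL3 lost its call with median centring (-0.36) and with the mean over probes (-0.05). With no background subtraction (0.28) and without high-background spots (0.28), CXCL8 was called as well. With the replicate number as a block, 10 differed, CXCL8 added (0.25). The labels tie the replicates of the populations by number alone, and with 2 pairs the data do not settle whether the numbers pair them. The replicate differences correlated across probes with r = 0.21, and with r = 0.04 in the authors' table. With averaged H460C replicates the count was 9. The low H460 signal limits the size of the CXCR4, ACKR3, CXCL14, and CCL2 ratios, and saturation that of CXCL1 and of the CXCL5 probe read.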
